A study of Homo sapiens with 12 samples.

Results

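The effect of EPZ011989 on MKL-1 cells was compared between day 12 and day 6 of treatment, gene by gene. MKL-1 is an established human line from a Merkel cell carcinoma, a neuroendocrine skin cancer, and is positive for the polyomavirus of that tumour. EPZ011989 is an inhibitor of the enzyme EZH2. All 12 libraries of the 12 in the series entered the comparison. They were 3 libraries of cells given 1% ethanol for 6 days, 3 of cells given 3 µM EPZ011989 in 1% ethanol for 6 days, and 3 of each kind at day 12. All 4 groups therefore received ethanol, and all were split into fresh medium every 3 days. A single cell line was used. Whether the 3 libraries of a group came from separate cultures is not stated in the labels, so the p-values reflect only their spread, which may be technical.

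EZH2 is the enzyme of PRC2, a Polycomb complex that places a repressive methyl mark on histone H3 (H3K27) at silent developmental genes. SUZ12 and EED are its other core subunits, and EZH1 is a related enzyme that can take the place of EZH2. An inhibitor of the enzyme leaves the protein and existing methyl marks in place, and the marks are lost as cells divide and turn over histones. In Merkel cell carcinoma the viral T antigens are known to inactivate RB-type control of the cell cycle.

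Messenger RNA was captured by its polyA tail and sequenced to 15994997 to 20866370 estimated reads per library. Levels are in CPM, the reads of a gene scaled to a fixed total per library, in which 3 reads correspond to 0.14 to 0.19 CPM. Of 35347 genes with summed reads, 15024 had enough reads to be tested. The first principal component held 61.1% of the variance and ordered the groups as vehicle, treated at day 6 and treated at day 12. On the third component, 1 vehicle library of day 12 (replicate 1) lay at -51.4 and the others of its group at -14.0 and 7.001. The 7 markers used to check the line (KRT20, SOX2, ATOH1, INSM1, ISL1, CHGA, SYP) were read in every library, from 66.6 CPM for KRT20 in its lowest library to 661 CPM for ATOH1 in its highest.

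The effect at a day is the log2 ratio of treated to vehicle cells at that day. The difference is the day 12 effect minus the day 6 effect. It equals, exactly, the change of treated cells from day 6 to day 12 minus the change of vehicle cells over the same days, so each difference can be read by arm. A gene was called at a Benjamini-Hochberg adjusted p under 0.05 in edgeR's quasi-likelihood test over all 15024 genes. Log2 values are given ± their standard error (SE), and CPM values are given for replicates 1, 2 and 3 in order.

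The difference was called for 7166 genes (47.7% of those tested), with 3401 (22.6%) more positive at day 12 and 3765 (25.1%) more negative. At least a 2-fold difference was seen in 1226 and 1030 of them. Most called genes had no called effect at day 6. Such late effects numbered 1860 rises (12.4%) and 2112 falls (14.1%). Effects already called at day 6 had grown in the same direction for 978 rises (6.51%) and 1142 falls (7.60%). The median grown rise went from a log2 effect of 0.71 at day 6 to 1.71 at day 12, and the median grown fall from -0.33 to -1.13. Effects were smaller at day 12 for 64 rises and 18 falls (0.546% together). Effects no longer called, here named faded, numbered 210 rises (1.40%) and 236 falls (1.57%), 2.97% together. They had turned from a rise to a fall for 173 genes (1.15%) and from a fall to a rise for 215 (1.43%), 2.58% together. A further 158 genes had a called difference with neither day's effect called, and 52.3% of genes had no called difference. The same day 6 and day 12 libraries set all 3 calls, so the classes are a description and carry no test of their own.

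**Figure D1:**
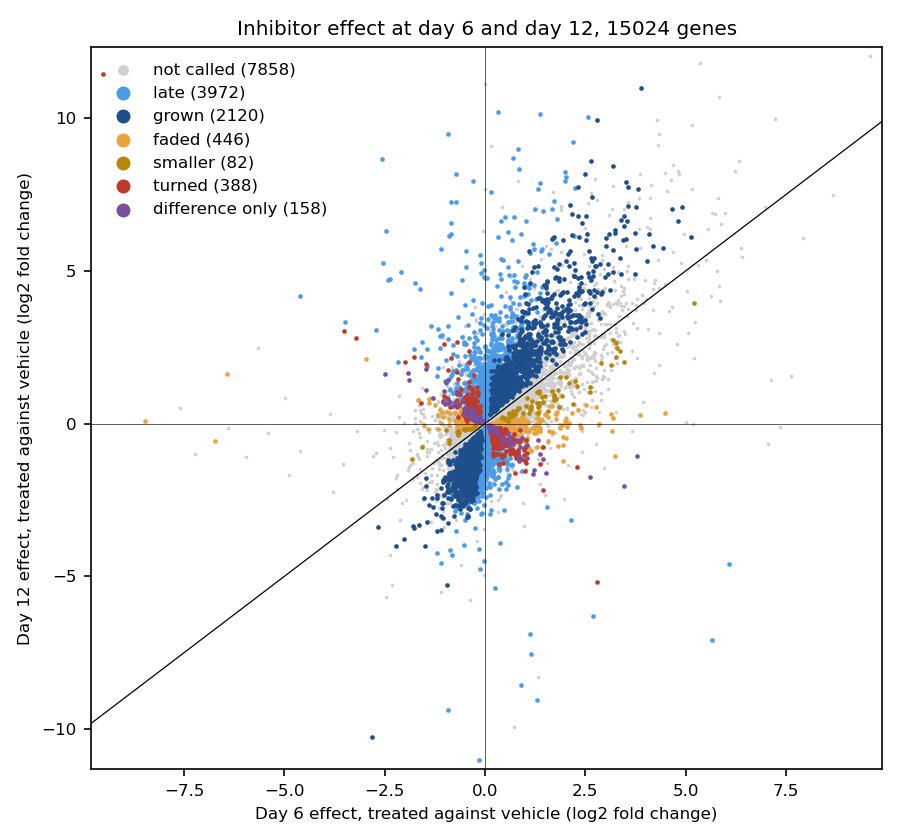
Each point is 1 of the 15024 tested genes, with the day 6 effect on the x axis and the day 12 effect on the y axis (both log2 fold change, treated against vehicle, 3 libraries per group). The diagonal marks equal effects. Grown (2120) and late (3972) genes lie away from the diagonal on the day 12 side, and turned genes (388) lie in the upper left and lower right quadrants.

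Among the 5133 genes called at day 6 (34.2% of those tested), 41.3% had grown, 1.60% were smaller, 8.69% had faded and 7.56% had turned by day 12. Rises and falls of at least 2-fold at day 6 were far apart in number, at 1067 and 104. Of the 1067 rises, 365 had grown, 45 were smaller, 67 had faded, 9 had turned and 581 had no called difference. By day 12, 10051 genes (66.9%) were called.

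Genes of DNA replication, mitosis and recombination fell at day 6 and further by day 12. The difference was more negative in 35 of 35 replication genes, 35 of 36 mitosis genes and 23 of 24 genes of homologous recombination and Fanconi repair, against 25.1% of all genes. Their median effects moved from -0.37 to -1.90, from -0.33 to -2.15 and from -0.41 to -2.25 on the log2 scale. Over all tested genes the median effect was -0.02 at day 6 and 0.02 at day 12. Grown falls made up 30 of the replication genes, 29 of the mitosis genes and 19 of the recombination genes, and late falls most of the rest. The treated arm carried these changes. From day 6 to day 12 treated cells fell in 35, 36 and 23 of these genes (29.8% of all genes fell), while vehicle cells rose in 1 and fell in 6 of the 35 replication genes, rose in 12 and fell in 0 of the mitosis genes, and rose in 2 and fell in 1 of the recombination genes (5.96% of all genes rose and 7.15% fell).

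MKI67 (chr10:128096659-128126385, GRCh38), which encodes the proliferation marker Ki-67, read 1023, 913 and 963 CPM in vehicle and 757, 769.8 and 782 CPM in treated cells at day 6. The day 12 readings were 1104, 1092 and 1045 CPM in vehicle and 213, 219 and 202 CPM in treated cells. Treated libraries lay below vehicle libraries at both days, by a small margin at day 6 and a wide one at day 12. The log2 effect went from -0.33 ± 0.04 to -2.35 ± 0.05, a difference of -2.03 ± 0.06 (edgeR adjusted p = 1.91e-10). MCM3 (chr6:52264009-52284881), a subunit of the replicative helicase, read 372, 374 and 381 CPM in vehicle and 314, 324 and 328 CPM in treated cells at day 6. At day 12 vehicle cells still read 373, 379 and 368 CPM and treated cells 101, 109 and 106 CPM. The vehicle change of MCM3 was -0.01 ± 0.04 and the treated change -1.61 ± 0.04, so the whole difference lay in the treated arm. BUB1B (chr15:40161023-40221136), a spindle checkpoint kinase, did the same, with effects of -0.44 ± 0.05 and -2.47 ± 0.06.

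The promoters of these 3 genes are shown because the mitosis and replication lists differed in the motifs they hold. The sequences are from RefSeq (GRCh38.p14), 5′ to 3′ on the strand of the gene, from 250 bases before to 50 after the start. Capitals mark the CHR element (TTTGAA), the CCAAT box (CCAAT) and either E2F core, TTCCCGC or TTGGCGC, searched on both strands. The MYBL2 window, picked along with these 3, held none of these exact motifs and is not printed. It did hold TTGGCGG, which differs from an E2F core searched here only in its last base. Such near matches were not counted in any promoter.
MKI67, chr10:128126374-128126673, minus strand: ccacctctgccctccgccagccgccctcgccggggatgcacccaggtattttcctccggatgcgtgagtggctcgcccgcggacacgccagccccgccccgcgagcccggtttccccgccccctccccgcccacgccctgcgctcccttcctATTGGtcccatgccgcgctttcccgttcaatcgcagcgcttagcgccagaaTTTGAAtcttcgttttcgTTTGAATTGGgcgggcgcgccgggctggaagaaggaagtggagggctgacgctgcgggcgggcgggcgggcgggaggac
MCM3, chr6:52284693-52284992, minus strand: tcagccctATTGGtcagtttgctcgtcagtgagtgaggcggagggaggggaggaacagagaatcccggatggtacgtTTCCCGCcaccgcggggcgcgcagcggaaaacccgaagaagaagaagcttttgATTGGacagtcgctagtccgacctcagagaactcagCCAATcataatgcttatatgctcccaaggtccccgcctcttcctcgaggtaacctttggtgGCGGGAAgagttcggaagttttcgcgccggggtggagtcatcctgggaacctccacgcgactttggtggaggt
BUB1B, chr15:40160819-40161118, plus strand: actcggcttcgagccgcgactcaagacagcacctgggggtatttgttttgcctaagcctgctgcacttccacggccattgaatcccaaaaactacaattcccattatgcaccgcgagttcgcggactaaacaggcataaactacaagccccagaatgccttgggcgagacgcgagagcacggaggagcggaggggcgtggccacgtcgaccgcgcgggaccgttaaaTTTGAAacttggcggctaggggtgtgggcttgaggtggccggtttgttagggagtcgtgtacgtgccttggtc
The MKI67 window held 2 CHR elements and 2 CCAAT boxes and no E2F core. The MCM3 window held 2 E2F cores and 3 CCAAT boxes and no CHR element. The BUB1B window held 1 CHR element and neither of the others.

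The same split between CHR element and E2F core ran through the lists. A CHR element, known as the site of the DREAM and MYB-MuvB complexes at late cell cycle genes, was in 23 of 31 mitosis promoters (74.2%) and 1 of 31 replication promoters (3.23%). It was in 9.67% of the 11262 promoters of tested genes that the table holds and in 15.4% of all 27305 RefSeq promoters. An E2F core was in 20 of 31 replication promoters (64.5%) and 13 of 21 recombination promoters (61.9%), against 5 of 31 mitosis promoters (16.1%). It was in 14.5% of the promoters of tested genes and 9.33% of all RefSeq promoters. The CCAAT box did not split the lists in this way. It was in 80.6% of mitosis, 54.8% of replication and 42.9% of recombination promoters, against 36.5% of the promoters of tested genes. The 931 promoters of grown falls held an E2F core in 26.3% and the 1699 of late falls in 20.0%. The 738 of grown rises and the 1428 of late rises held it in 9.49% and 9.45%. Promoters were matched for 75.0% of tested genes, 81.5% of grown falls, 80.5% of late falls, 75.5% of grown rises and 76.8% of late rises, so the shares of the rises and of all tested genes cover under 80% of their genes. A match is a description of these letters and not a bound site.

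**Figure D2:**
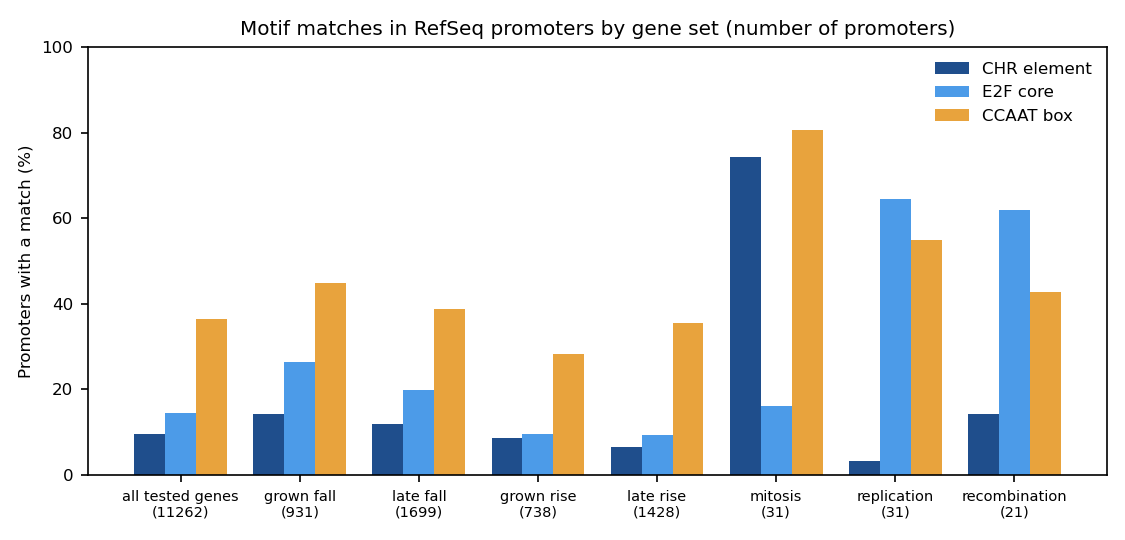
Bars give the percent of RefSeq promoters in a gene set that hold at least 1 match to the CHR element, an E2F core or the CCAAT box, with the number of promoters in parentheses. Across the sets, the CHR bar is tallest in the mitosis list (74.2%) and the E2F bar in the replication list (64.5%). The CCAAT bar is also tallest in the mitosis list (80.6%), where it exceeds the CHR bar.

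Transcription factors of the cell cycle also fell. MYBL2 (chr20:43667019-43716496), the MYB subunit that joins MuvB in S phase, had a log2 effect of -0.76 ± 0.05 at day 6 and -2.67 ± 0.05 at day 12. FOXM1, a mitotic transcription factor, went from -0.59 ± 0.06 to -2.40 ± 0.06. E2F7, a repressor of E2F targets, had no called day 6 effect at -0.18 ± 0.08 and fell by day 12 to -2.41 ± 0.09. Of 26 tested RB, E2F, DREAM and G1 to S cyclin genes, 16 (61.5%) had a more negative and 2 (7.69%) a more positive difference, against 25.1% and 22.6% of all genes. Among the strongest growing falls chosen by rule over all genes were 3 further cell cycle and repair genes. NUSAP1, a spindle protein, went from -0.46 ± 0.10 to -3.07 ± 0.12, SKA3, a kinetochore protein, from -0.39 ± 0.09 to -2.75 ± 0.10, and FANCB, a Fanconi core complex subunit, from -0.43 ± 0.15 to -3.02 ± 0.18. NEIL3, a DNA glycosylase, MAN1A1, a Golgi mannosidase, and FBLN7, a matrix protein, completed that set, with differences of -2.34 ± 0.20, -2.42 ± 0.12 and -2.38 ± 0.29.

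CDK inhibitors did not move as 1 group. Of only 6 tested, 2 (33.3%) had a more positive and 3 (50%) a more negative difference, against 22.6% and 25.1% of all genes. CDKN1C (chr11:2883213-2885773), which encodes p57, read 12.5, 14.8 and 15.4 CPM in vehicle and 96.1, 89.8 and 90.6 CPM in treated cells at day 6. Day 12 libraries held 9.65, 13.5 and 15.6 CPM and 346, 366 and 389 CPM. Treated libraries lay above all vehicle libraries at both days, and the difference was 2.13 ± 0.16 (edgeR adjusted p = 1.14e-07). CDKN1A, which encodes p21, rose at day 6 by 0.57 ± 0.05 and at day 12 by 1.88 ± 0.05. CDKN2C, which encodes the CDK4 and CDK6 inhibitor p18, fell at both days, at -0.87 ± 0.07 and -1.63 ± 0.07.

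EZH2 itself (chr7:148807383-148884321) belonged to the growing falls. Its transcript read 156, 159.9 and 156 CPM in vehicle and 137, 138 and 142 CPM in treated cells at day 6, and 182, 178 and 164 CPM and 60.8, 61.9 and 57.2 CPM at day 12. The log2 effect went from -0.18 ± 0.05 to -1.54 ± 0.05, with a vehicle change of 0.15 ± 0.05 that was not called. Treated libraries thus lay below vehicle libraries at both days, and the gap widened through the treated arm. SUZ12 was a late fall, at -0.12 ± 0.08 and then -0.80 ± 0.08. EZH1 had a difference of 0.27 ± 0.12 that missed the threshold (edgeR adjusted p = 0.07), and passed it in 4 of the alternative fits (adjusted p = 0.044 to 0.048). The summed reads of EED held only 0.578 of its level in the authors' table, and its difference of -0.18 ± 0.22 was not called. Of 12 tested PRC2 genes, 5 (41.7%) had a more negative difference and 1 (8.33%), the accessory subunit JARID2, a more positive one at 0.76 ± 0.07. Of 21 PRC1 genes 9 (42.9%) were more negative and 5 (23.8%) more positive. Of 16 other listed enzymes that modify H3K27 or H3K4, 2 (12.5%) were more negative and 4 (25%) more positive, against 25.1% and 22.6% of all genes. The 4 were KDM6B, KMT2D, KDM5B and KDM5C. KDM6B, which removes the Polycomb mark, was at 1.10 ± 0.11 and KMT2D, an H3K4 methyltransferase, at 0.47 ± 0.10. KDM5B and KDM5C, which remove the active H3K4 mark, were at 0.93 ± 0.07 and 0.50 ± 0.10. The 2 more negative included KMT2A, whose treated libraries overlapped with vehicle at day 6 and lay below it at day 12.

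Hair cell and cilium genes had the highest medians at day 12 of the lists with at least 12 tested genes. Of 39 tested genes of the otic placode, hair bundle and hair cell, 25 had a more positive and 3 a more negative difference, against 22.6% and 25.1% of all genes. Their median effect went from 0.28 to 1.81. Of 55 motile cilium genes 31 had a more positive and 4 a more negative difference, and the median went from 0.43 to 2.44. The cilium list held 23 late and 10 grown genes of either direction and the hair cell list 12 of each. Over all genes 26.4% were late and 14.1% grown. The vehicle change was called in 1 of the 55 cilium genes. In the hair cell list vehicle cells rose in 4 and fell in 5 of 39, against 5.96% and 7.15% of all genes, and in 2 and 1 without replicate 1 of the day 12 vehicle group. The hair cell counts were 6 and 9 without replicate 3 of that group, and 0 and 0 without replicate 2 or 3 of the day 6 vehicle group and with transcript lengths as an offset. These lists lie at the top of the plot of list medians.

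PAX2 (chr10:100735603-100829941), a transcription factor of the otic placode, read 3.59, 3.37 and 3.75 CPM in vehicle and 40.02, 39.9 and 37.7 CPM in treated cells at day 6. At day 12 it read 1.48, 2.69 and 3.16 CPM and 225, 203 and 218 CPM. The treated level rose by 2.46 ± 0.10 on the log2 scale between the days, while the vehicle change of -0.54 ± 0.18 was not called. CDH23, the upper part of the tip link between stereocilia, had effects of 2.55 ± 0.06 and 4.94 ± 0.06, though its summed reads stood at 1.24 times its level in the authors' table. MYO6, an unconventional myosin of hair cells, went from 1.10 ± 0.04 to 2.27 ± 0.04. PCDH15 (chr10:53802771-55627942), the lower part of the tip link, turned. It read 2.65, 1.85 and 2.85 CPM in vehicle and 1.27, 1.47 and 1.10 CPM in treated cells at day 6, then 2.57, 3.14 and 3.35 CPM and 11.8, 8.24 and 10.8 CPM. Its effect was -0.93 ± 0.25 at day 6 and 1.76 ± 0.23 at day 12, with treated libraries below vehicle first and above it later. COCH, which encodes cochlin of the inner ear matrix, went the other way to most of its list, at -0.24 ± 0.06 and then -1.76 ± 0.06.

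FOXJ1 (chr17:76136333-76141299), a master regulator of motile cilia, read 1.93, 2.23 and 1.48 CPM in vehicle and 5.88, 6.16 and 6.93 CPM in treated cells at day 6. The day 12 readings were 1.29, 1.79 and 1.03 CPM and 36.6, 34.2 and 42.1 CPM, and its effect went from 1.75 ± 0.18 to 4.76 ± 0.19. CFAP70, an axonemal protein, went from 0.98 ± 0.15 to 4.25 ± 0.14. The dynein heavy chain DNAH7 had a difference of 4.93 ± 0.41 here, but its summed reads were 1.70 times its level in the authors' table and the call was lost in limma on that table (2.00, adjusted p = 0.16). DNAH3, another dynein heavy chain, went against the list as a late fall, with a difference of -2.58 ± 0.29.

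Several of the largest rises started from almost no reads. KCNA10 (chr1:110517217-110519175), a voltage-gated potassium channel, read 0.331, 0 and 0.106 CPM in vehicle and 0.637, 0.385 and 0.115 CPM in treated cells at day 6. No day 12 vehicle library held a read of it. Treated cells read 9.36, 6.33 and 7.70 CPM at day 12. With a vehicle group at 0 the fitted difference depends on the prior count, so the treated change of 4.31 ± 0.59 is the value to read. CGA, the shared alpha subunit of glycoprotein hormones, went in treated cells from 0.147, 0.641 and 0 CPM to 31.8, 24.5 and 30.01 CPM, a change of 6.83 ± 0.49. ARMC3 and TTC24 changed in treated cells by 6.39 ± 0.41 and 4.40 ± 0.51. The called difference of CGA, ARMC3 and TTC24 was lost without replicate 3 of the day 6 vehicle group, the library with the highest level of each in that group. PPM1J, a protein phosphatase, changed by 3.28 ± 0.40 in treated cells, and its call was lost without replicate 2 of the day 6 vehicle group. GPR142, a receptor, changed by 4.04 ± 0.46 and GPX2, a glutathione peroxidase, by 4.71 ± 0.44. PIFO, a ciliary protein, rose by 4.09 ± 0.43.

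ADCYAP1, which encodes the neuropeptide PACAP, read 0.276, 0.597 and 0.158 CPM in vehicle and 2.50, 2.31 and 1.67 CPM in treated cells at day 6. Day 12 libraries held 0, 0.112 and 0.0644 CPM and 24.6, 25.8 and 28.1 CPM, so treated and vehicle cells moved apart from both sides. The vehicle fall (edgeR adjusted p = 0.039) rested on few reads, 19 over the day 6 group and 3 over the day 12 group. PDGFC, a growth factor, went from 2.45, 3.59 and 4.04 CPM to 41.3, 40.01 and 42.3 CPM in treated cells. The muscle genes TNNC2 (troponin C) and MYOZ3 (myozenin) were also growing rises, with treated changes of 2.66 ± 0.37 and 3.23 ± 0.18.

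Secretory and neuronal genes moved in both directions. Of 27 tested neuroendocrine granule and hormone genes, 17 (63%) had a more positive and 5 (18.5%) a more negative difference, against 22.6% and 25.1% of all genes, and the median effect went from 0.19 to 0.37. SYT1 (chr12:78863993-79452008), the calcium sensor of vesicle release, read 23.9, 23.5 and 25.5 CPM in vehicle and 17.8, 19.4 and 18.1 CPM in treated cells at day 6. It read 25.2, 26.2 and 23.9 CPM and 117, 89.1 and 99.2 CPM at day 12. Its effect turned from -0.40 ± 0.10 to 2.02 ± 0.09, all of it in the treated arm. CHGB, a granin, grew from 0.31 ± 0.07 to 1.55 ± 0.07, and PCSK2, a prohormone convertase, from 0.21 ± 0.05 to 1.71 ± 0.05. Of 22 Merkel cell markers 11 (50%) were more positive and 7 (31.8%) more negative. Among them the somatostatin receptor SSTR2 grew from 1.37 ± 0.05 to 2.02 ± 0.05, while the epithelial genes KRT19 and EPCAM grew as falls, to -2.11 ± 0.08 and -1.34 ± 0.06 at day 12. SOX2 had a smaller fall at day 12 (-0.19 ± 0.07) than at day 6 (-0.48 ± 0.07). Of the other markers used to check the line, ISL1, CHGA and SYP had called differences of -0.42, 0.55 and 0.91. KRT20, ATOH1 and INSM1 had no called difference, though the summed reads of KRT20 held only 0.314 of its level in the authors' table.

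Of 49 neuronal adhesion, axon and cytoskeleton genes, 19 (38.8%) were more positive and 10 (20.4%) more negative, against 22.6% and 25.1% of all genes. Held genes, defined below, numbered 11 of the 49 and made up 8.99% of all genes. CNTN2, an axonal adhesion protein, grew from 1.07 ± 0.06 to 2.90 ± 0.06. NCAM1, another adhesion protein, was a late fall at -0.82 ± 0.04. Among 51 matrix and integrin genes 13 (25.5%) were more positive and 10 (19.6%) more negative, close to the shares over all genes. TNC (chr9:115019578-115118257), the matrix glycoprotein tenascin C, was a growing rise. It read 24.02, 22.4 and 22.9 CPM in vehicle and 201, 194 and 198 CPM in treated cells at day 6, and 20.5, 20.2 and 28.2 CPM and 1778, 1579 and 1763 CPM at day 12. The vehicle change was -0.01 ± 0.10 and the treated change 3.11 ± 0.08. The laminin chain LAMA3 grew as a fall, from -0.37 ± 0.07 to -2.33 ± 0.07.

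**Figure D3:**
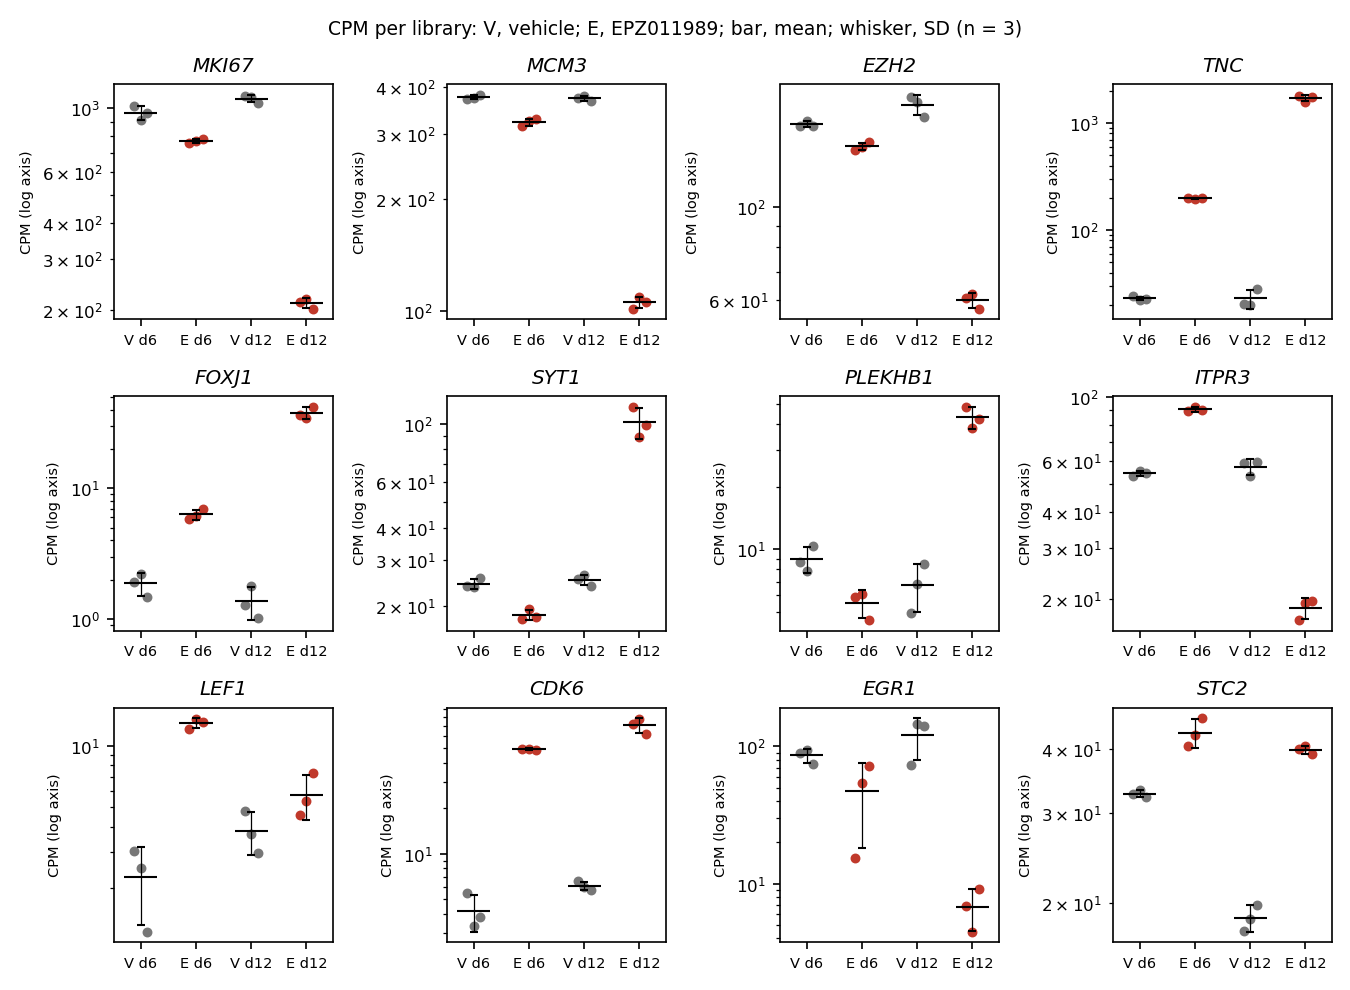
Each panel shows 1 gene, with CPM on a log axis for the 3 libraries of each group (grey, vehicle; red, EPZ011989), the mean as a bar and the SD as a whisker. MKI67, MCM3 and EZH2 fall in treated cells mainly between the days, TNC and FOXJ1 rise at both days, SYT1, PLEKHB1 and ITPR3 cross their vehicle level, LEF1 returns towards it, CDK6 stays apart from it, and STC2 moves in vehicle cells.

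**Figure D4:**
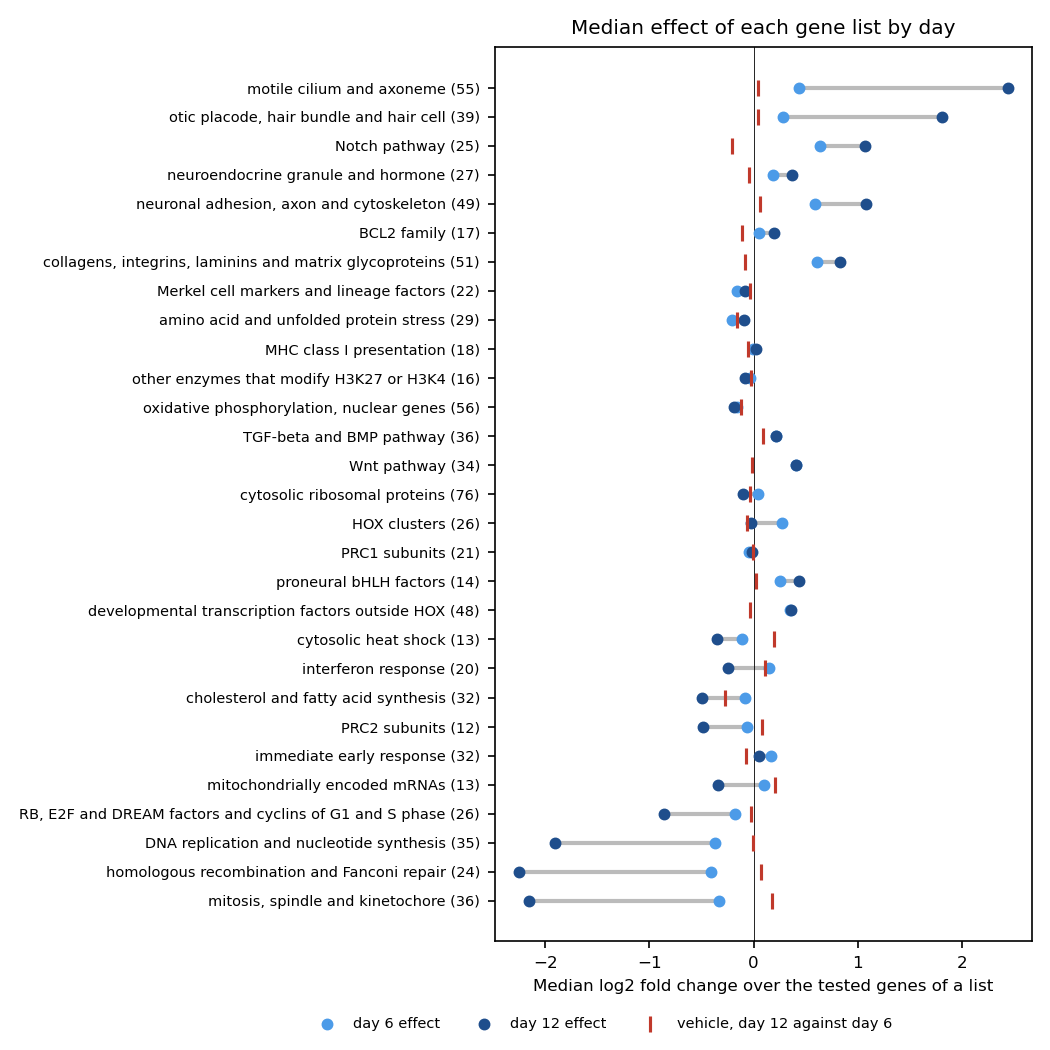
Each row is a gene list with at least 12 tested genes (number in parentheses). Points give the median log2 effect at day 6 and at day 12, and the red tick gives the median change of vehicle cells from day 6 to day 12. Cilium and hair cell medians move furthest up, to 2.44 and 1.81, and recombination and mitosis medians furthest down, to -2.25 and -2.15.

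Other effects levelled off after day 6. Held genes were those called at both days in the same direction whose 95% interval of the difference stayed within 1.5-fold either way. There were 1351 (8.99% of those tested), with 519 rises and 832 falls. Of the 1351, 376 also had a called but small difference and are counted among the grown or smaller genes as well. Only 59 of the 1067 rises and 4 of the 104 falls of at least 2-fold at day 6 met that rule. CDK6 (chr7:92604921-92836594), the G1 kinase that pairs with D cyclins, read 5.52, 3.31 and 3.80 CPM in vehicle and 49.6, 49.2 and 48.1 CPM in treated cells at day 6. At day 12 it read 6.57, 6.05 and 5.80 CPM and 72.05, 77.8 and 61.8 CPM. Both arms rose a little, by 0.54 ± 0.16 and 0.53 ± 0.11, and the difference was -0.02 ± 0.19 (95% interval -0.43 to 0.39). RHOU read 48.2, 50.4 and 47.96 CPM in treated cells at day 6 and 51.2, 50.2 and 52.9 CPM at day 12, against 7.46 to 8.91 CPM over the 6 vehicle libraries. Its difference was 0.05 ± 0.12 (95% interval -0.20 to 0.30). PTGFRN and PSD3 were held at day 6 effects of 2.61 ± 0.14 and 2.57 ± 0.11, and KCNK9, a potassium channel, at 2.77 ± 0.16. SCRT1, a neural repressor, was held at 2.60 ± 0.21.

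Held falls of at least 2-fold were few. FREM2, a basement membrane protein, read 69.8, 76.4 and 70.7 CPM in vehicle and 25.8, 25.97 and 26.6 CPM in treated cells at day 6, and 72.3, 71.6 and 72.5 CPM and 20.2, 20.00 and 22.6 CPM at day 12. Its difference of -0.32 ± 0.09 was called yet lay within the held limits. NEUROD2, a proneural factor, was held in effect (-1.08 ± 0.12 and -1.03 ± 0.12) while its level fell in both arms, with changes of -0.60 ± 0.12 in vehicle and -0.55 ± 0.12 in treated cells. MUC1, a mucin, did so too, with effects of -1.28 ± 0.11 and -1.30 ± 0.11. The fourth, IGHG1, belongs to a family of near-identical genes and is uncertain.

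Early rises that faded included developmental and signalling genes. LEF1 (chr4:108047545-108168956), a transcription factor of the Wnt pathway, read 3.04, 2.50 and 1.21 CPM in vehicle and 12.1, 13.5 and 13.2 CPM in treated cells at day 6. The day 12 readings were 4.76, 3.70 and 2.96 CPM and 4.55, 5.33 and 7.36 CPM. Treated libraries lay above vehicle at day 6 and overlapped with it at day 12, and the difference was -1.93 ± 0.40 (edgeR adjusted p = 0.0011). HK2 (chr2:74833981-74893359), a hexokinase, read 2.15, 1.52 and 1.58 CPM in vehicle and 10.4, 8.27 and 8.25 CPM in treated cells at day 6. It read 2.57, 2.07 and 2.19 CPM and 2.46, 2.01 and 2.14 CPM at day 12, so the effect of 2.36 ± 0.22 was followed by -0.05 ± 0.23. The treated change was called in both genes (-1.17 ± 0.27 and -2.03 ± 0.22) and the vehicle change in neither (0.76 ± 0.30, edgeR adjusted p = 0.0987, and 0.38 ± 0.23).

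PROM1, which encodes the membrane protein prominin 1, faded from both sides: vehicle cells rose by 1.59 ± 0.39 and treated cells fell by 1.25 ± 0.34. HPGD, which degrades prostaglandins, and ELK3, an ETS factor, faded with differences of -2.20 ± 0.61 and -2.16 ± 0.35. Their day 12 effects of -0.77 ± 0.43 and -0.58 ± 0.25 lay below 0 but were not called. STXBP6, a SNARE-binding protein, faded with a difference of -2.06 ± 0.43 to a day 12 effect of 0.03 ± 0.31. HPGD was no longer called with transcript lengths as an offset (-1.82, adjusted p = 0.053). HOXA13 faded from 1.09 ± 0.16 to -0.24 ± 0.17, while HOXD9 and HOXC13 grew, to 1.65 ± 0.14 and 3.31 ± 0.21. Of 26 tested HOX genes, 3 were more positive and 3 more negative (11.5% each, against 22.6% and 25.1% of all genes). Of the 26, 5 were held, against 8.99% of all genes.

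Falls that faded had a median day 6 effect of -0.34, against 0.65 for rises that faded. RAB25, an epithelial GTPase, read 6.02, 6.63 and 5.81 CPM in vehicle and 2.40, 3.14 and 2.66 CPM in treated cells at day 6, then 5.21, 5.55 and 5.80 CPM and 5.48, 4.62 and 4.50 CPM. The treated libraries lay below vehicle at day 6 and overlapped with it at day 12, with a difference of 0.99 ± 0.26. SCGB2A1, a secretoglobin, and BEX5 faded with differences of 1.47 ± 0.24 and 0.93 ± 0.27. The day 12 effect of BEX5, 0.28 ± 0.19, was not called, though all its treated libraries lay above vehicle. ISL2, a LIM homeodomain factor, faded as both arms moved towards each other, at -0.60 ± 0.18 in vehicle and 0.50 ± 0.18 in treated cells. ZACN, a zinc-activated channel, ranged from 5.28 to 19.8 CPM within the day 12 vehicle group and from 6.45 to 30.5 CPM in treated cells at day 12, and neither arm's change was called. FKBP2, the last of the set, is described with the vehicle arm.

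Genes that turned from a rise to a fall included ITPR3 (chr6:33620365-33696574), an inositol trisphosphate receptor that releases stored calcium. It read 53.1, 55.4 and 54.7 CPM in vehicle and 89.00, 92.5 and 89.8 CPM in treated cells at day 6. It read 59.2, 53.1 and 59.5 CPM and 16.8, 19.3 and 19.6 CPM at day 12. All treated libraries lay above vehicle at day 6 and below it at day 12, and the vehicle change of 0.07 ± 0.07 was not called. The effect went from 0.73 ± 0.07 to -1.62 ± 0.07, a difference of -2.36 ± 0.10 (edgeR adjusted p = 7.67e-10). SLC39A8, a zinc transporter, went from 1.01 ± 0.18 to -1.29 ± 0.20, HERC5, the ISG15 ligase, from 1.43 ± 0.22 to -0.76 ± 0.24, and KCNK2, a potassium channel, from 0.93 ± 0.19 to -1.17 ± 0.20. IQGAP2, a scaffold protein, had a difference of -2.70 ± 0.47 whose call was lost with transcript lengths as an offset (-2.59, adjusted p = 0.058). H3P6 is a histone H3 pseudogene whose reads cannot be told apart from its parent family, and its value of -3.63 ± 0.70 is uncertain. DLL4, a Notch ligand, also turned, from 0.70 ± 0.09 to -0.95 ± 0.09. The BCL2-family sensitiser PMAIP1 went from 0.46 ± 0.06 to -0.25 ± 0.06.

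Other genes turned from a fall to a rise. PLEKHB1 (chr11:73646178-73662819), a pleckstrin homology protein of sensory and nerve cells, read 8.73, 7.87 and 10.4 CPM in vehicle and 5.88, 6.09 and 4.56 CPM in treated cells at day 6. Day 12 libraries held 4.96, 6.84 and 8.50 CPM and 48.6, 38.2 and 42.5 CPM. The groups did not overlap at either day, and the effect went from -0.71 ± 0.18 to 2.67 ± 0.17. S100A1 (chr1:153627926-153632039), a calcium-binding protein, read 3.13, 2.69 and 2.60 CPM in treated cells at day 6 and 25.2, 21.5 and 18.1 CPM at day 12. Vehicle cells fell meanwhile from 6.02, 5.32 and 5.76 CPM to 3.54, 3.47 and 3.54 CPM, and the difference was 3.63 ± 0.22 (edgeR adjusted p = 1.16e-08). INSC, a polarity protein, went from -0.85 ± 0.19 to 2.14 ± 0.18 and RNASET2, a lysosomal ribonuclease, from -0.41 ± 0.12 to 2.38 ± 0.11. DGCR6 has a close paralogue, and its difference of 3.99 ± 0.45 is uncertain.

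Developmental transcription factors outside the HOX clusters showed no common course. At day 6, 21 of 48 tested were higher and 7 lower (17.1% and 17.0% of all genes), and at day 12 21 and 15 (33.7% and 33.2%). From day 6 to day 12 treated cells rose in 14 and fell in 22 of them (27.8% and 29.8% of all genes). The difference was more positive in 10 (20.8%) and more negative in 17 (35.4%), against 22.6% and 25.1% of all genes. GBX2, a homeobox factor, grew from 0.70 ± 0.18 to 3.07 ± 0.18. PAX9 grew as a fall, from -0.86 ± 0.12 to -2.48 ± 0.14, as did TBX18, to -1.89 ± 0.10, and LHX2 was a late fall at -1.26 ± 0.08. In the Notch list 9 of 25 genes (36%) were more positive and 3 (12%) more negative, with the ligand JAG2 a late rise at 1.14 ± 0.07 and the glycosyltransferase MFNG turning from -0.37 ± 0.07 to 0.45 ± 0.07. The Wnt and the TGF-beta and BMP lists had 5 and 6 of 34 (14.7% and 17.6%), and 4 and 8 of 36 (11.1% and 22.2%), more positive and more negative. The BMP ligand BMP7 grew as a fall, from -1.33 ± 0.06 to -2.45 ± 0.07.

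Immediate early genes, which respond within minutes to growth signals, included 2 of the largest late falls. EGR1 (chr5:138465490-138469315) read 89.8, 94.2 and 75.1 CPM in vehicle and 15.3, 54.1 and 72.3 CPM in treated cells at day 6. At day 12 it read 73.8, 145 and 142 CPM and 6.91, 4.47 and 9.10 CPM. Replicate 1 was the lowest library of 2 groups, treated at day 6 and vehicle at day 12. All treated libraries already lay below vehicle at day 6, where the effect of -0.88 ± 0.39 missed the threshold (edgeR adjusted p = 0.097). All treated libraries at day 12 lay below every other library, and the treated change was -2.79 ± 0.47 against a vehicle change of 0.48 ± 0.38 that was not called. FOS had a treated change of -2.07 ± 0.33 and a vehicle change of 0.58 ± 0.29, after a day 6 effect of -0.51 ± 0.29 that was not called. The EGR1 promoter is shown for its CArG boxes, the site of serum response factor, marked in capitals (RefSeq, GRCh38.p14).
EGR1, chr5:138465229-138465528, plus strand: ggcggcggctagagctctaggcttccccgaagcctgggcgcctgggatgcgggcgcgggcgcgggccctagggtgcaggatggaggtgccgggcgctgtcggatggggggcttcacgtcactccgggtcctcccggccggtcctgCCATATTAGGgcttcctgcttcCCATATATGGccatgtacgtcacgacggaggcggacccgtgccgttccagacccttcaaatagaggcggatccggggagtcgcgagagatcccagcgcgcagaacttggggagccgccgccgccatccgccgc
This window held 2 CArG boxes, which were in 1.04% of promoters of tested genes and 1.28% of all RefSeq promoters. The FOS window of the same size held none, and sites outside these windows were not searched. Of 32 tested immediate early genes 9 (28.1%) had a more negative and 5 (15.6%) a more positive difference, against 25.1% and 22.6% of all genes, and 14 were more negative without replicate 1 of the day 12 vehicle group. Another late fall, RSC1A1, had a difference of -4.26 ± 1.24, which was not called with DESeq2 (adjusted p = 0.066), and its levels were at 0 in 1 library each of 2 groups. ATF3, a stress-induced factor, and NR4A2, an orphan nuclear receptor, were among those more positive, at 1.80 ± 0.24 and 1.17 ± 0.20.

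Cholesterol and fatty acid genes fell in both arms and by more in treated cells. Of 32 tested, 18 (56.2%) had a more negative difference and 1 (3.12%) a more positive one, against 25.1% and 22.6% of all genes. Treated cells fell between the days in 27 of them and vehicle cells in 16, against 29.8% and 7.15% of all genes. INSIG1 (chr7:155297776-155310235), a sterol sensor, read 197, 199.5 and 209 CPM in vehicle and 186, 177 and 199.8 CPM in treated cells at day 6, then 154, 150.0 and 150.0 CPM and 53.8, 52.9 and 52.4 CPM. Its vehicle change was -0.42 ± 0.05 and its treated change -1.82 ± 0.05. The vehicle count of 16 was 2 with transcript lengths as an offset and 5 to 18 without 1 vehicle library, while the count of more negative differences was 18 to 20 in the same fits.

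Ribosomal protein genes moved little. At day 6, 19 of 76 were higher and 1 lower, and at day 12 12 and 30 (over all genes 17.1% and 17.0%, then 33.7% and 33.2%). The median difference was -0.14, and 28 genes (36.8%) were more negative and 4 (5.26%) more positive, against 25.1% and 22.6% of all genes. RPS6 went from 0.18 ± 0.03 to -0.31 ± 0.03 and RPL3 from 0.34 ± 0.03 to 0.79 ± 0.03. Many ribosomal proteins have processed pseudogenes that can share reads. Of 13 mitochondrially encoded mRNAs 9 (69.2%) had a more negative and 0 a more positive difference. MT-CO1, a subunit of cytochrome oxidase, turned from 0.24 ± 0.08 to -0.34 ± 0.08, with vehicle cells up by 0.34 ± 0.08 and treated cells at -0.24 ± 0.08. The summed level of the 13 ranged from 36331 to 43245 CPM in vehicle at day 6, 43211 to 43709 in treated cells at day 6, 40682 to 50117 in vehicle at day 12 and 34989 to 37826 in treated cells at day 12. Nuclear genes of oxidative phosphorylation had 16 (28.6%) more negative and 6 (10.7%) more positive of 56.

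Separated by arm, 5433 of the 7166 called differences had a called change in treated cells alone. Both arms had a called change in opposite directions for 635 genes and in the same direction for 251. The vehicle arm alone was called for 374 (2.49% of tested genes), 202 more positive and 172 more negative, and neither arm for 473. Between the days 8658 genes (57.6%) changed in treated cells and 1970 (13.1%) in vehicle cells, and of changes of at least 2-fold there were 2460 and 85. The vehicle change was the larger of the 2 arms in 13.7% of the called differences and in 7.14% of the 2256 of at least 2-fold.

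**Figure D5:**
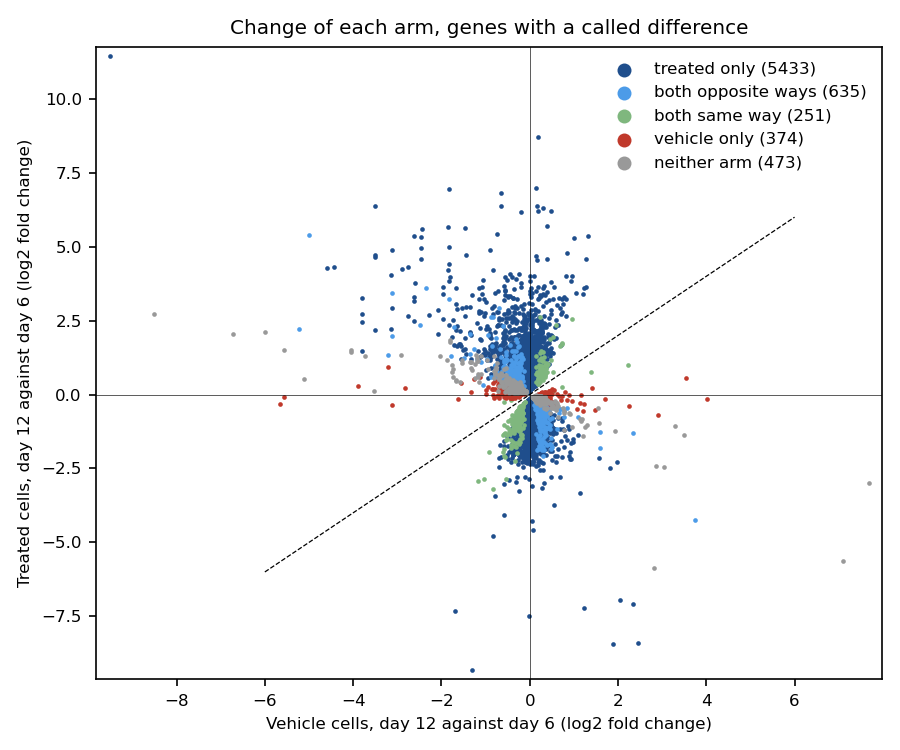
Points are the 7166 genes with a called difference, with the vehicle change from day 6 to day 12 on the x axis and the treated change on the y axis (both log2 fold change). The dashed line marks equal change. The treated-only genes (5433) spread along the y axis, and the vehicle-only genes (374) lie along the x axis.

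Some stress and chaperone genes gave clear examples of vehicle drift. STC2 (chr5:173314713-173329503), a secreted glycoprotein of the stress response, read 32.7, 33.3 and 32.3 CPM in vehicle at day 6 and 17.6, 18.7 and 19.8 CPM at day 12. Treated cells read 40.6, 42.6 and 46.00 CPM and 40.1, 40.5 and 39.2 CPM. The effect thus grew from 0.39 ± 0.07 to 1.09 ± 0.07 while treated cells changed by -0.11 ± 0.07 and vehicle cells by -0.81 ± 0.07. HSPH1 and DNAJA1, a chaperone and a co-chaperone, rose in vehicle cells by 0.35 ± 0.06 and 0.29 ± 0.04 and did not pass the test in treated cells (-0.11 ± 0.06 and -0.03 ± 0.04). HSPA8, the constitutive HSP70, rose by 0.53 ± 0.05 in vehicle and 0.13 ± 0.05 in treated cells. Of 13 cytosolic heat shock genes 8 (61.5%) had a more negative difference and 0 a more positive one (25.1% and 22.6% of all genes). Vehicle cells rose in 6 and fell in 1 of the 13 (5.96% and 7.15% of all genes). Treated cells rose in 3 and fell in 5 (27.8% and 29.8% of all genes). Of 29 amino acid and unfolded protein stress genes 10 (34.5%) were more positive and 5 (17.2%) more negative. Vehicle cells rose in 4 and fell in 10 of the 29, and treated cells rose in 10 and fell in 8. The called difference rested on the vehicle arm alone for 3 genes of each list (2.49% of all genes). PSAT1, of serine synthesis, differed from STC2 in that treated cells carried its rise, at 1.48 ± 0.05. CHAC1, a glutathione-degrading enzyme, turned from -0.70 ± 0.14 to 0.76 ± 0.15 through both arms.

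Among genes chosen by rule for a vehicle-arm difference, TP53I11 read 3.20, 2.28 and 2.27 CPM in vehicle at day 6 and 5.15, 4.93 and 4.38 CPM at day 12. Treated cells stayed at 18.8, 19.6 and 19.05 CPM and 17.9, 21.1 and 18.3 CPM, and the effect went from 2.89 ± 0.15 to 1.98 ± 0.14 with the whole change in vehicle cells. TIMP3, an inhibitor of metalloproteinases, rose in vehicle by 0.95 ± 0.23 and faded. CBLN4, a synaptic organiser, and EGFL7, a secreted vascular factor, fell in vehicle by 0.95 and 1.33 on the log2 scale, and the EGFL7 call was lost without replicate 2 of either vehicle group. FOSB, at -1.75 ± 0.58, MINAR1, at -1.02 ± 0.34, and BTF3L4P2, a pseudogene, lost the call in several fits with 1 library left out, and the readthrough BCL2L2-PABPN1 shares reads with its 2 parent genes. PITPNM1 (1.73 ± 0.42) changed sign in limma on the authors' table (-0.34, adjusted p = 0.66) and with transcript lengths as an offset (-0.35), so its direction is uncertain. RABEP2 read 6.57, 10.5 and 15.2 CPM and FKBP2 10.6, 16.3 and 25.8 CPM in the day 12 vehicle group, where replicate 1 was lowest in both. Their differences of 1.06 and 1.09 were 0.81 and 0.83 without it, and both stayed called (adjusted p = 0.0025 and 0.0068). ALDH3B1 had a difference of 1.23 ± 0.28, not called with transcript lengths as an offset (0.83, adjusted p = 0.059).

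The number of genes that drifted in vehicle depended on single libraries. The 1970 became 529 without replicate 1 of the day 12 vehicle group, 470 without replicate 2 and 4183 without replicate 3, and 184 and 186 without replicates 2 and 3 of the day 6 vehicle group. Vehicle counts of single lists moved too: without 1 vehicle library the 12 mitosis genes that rose became 1 to 20, the 6 heat shock genes that rose 4 to 9 and the 10 stress genes that fell 4 to 10. With transcript lengths as an offset they were 0, 4 and 1. Changes in treated cells stayed between 7867 and 9139 genes over the fits with 1 library left out.

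Immune and survival lists held changes in both directions. Of 18 MHC class I genes 3 were more positive and 3 more negative (16.7% each, against 22.6% and 25.1% of all genes). The summed reads of HLA-B and HLA-C fell short of the authors' level, and their differences of 1.01 ± 0.26 and 0.97 ± 0.09 are uncertain. Of 20 interferon response genes 2 (10%) were more positive and 6 (30%) more negative, with OAS3 a growing fall at -1.32 ± 0.06. In the BCL2 family (17 tested) 5 (29.4%) were more positive and 2 (11.8%) more negative: BCL2 fell to -2.02 ± 0.05 and the pro-apoptotic HRK rose to 3.64 ± 0.11 at day 12. Of 14 proneural factors 1 (7.14%) was more positive and 4 (28.6%) more negative.

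Most markers of other cell types had too few reads to be tested. Of 10 fibroblast, 13 leukocyte, 10 endothelial and 12 keratinocyte markers, 5, 3, 5 and 2 had enough reads to be tested. Summed over the 5 tested, fibroblast markers ranged from 15.7 to 24.4 CPM in vehicle and 22.7 to 31.0 in treated cells at day 6. At day 12 they ranged from 10.8 to 15.6 and 18.6 to 20.3. COL1A1, a fibroblast and matrix collagen, read 3.37, 1.57 and 1.80 CPM in vehicle at day 6 and 0.257, 0.112 and 0.580 CPM at day 12, and its difference of 3.05 ± 0.63 lay in the vehicle arm. The 3 tested leukocyte markers summed to 10.7 to 12.1 CPM in vehicle and 3.98 to 4.21 in treated cells at day 6. At day 12 they summed to 5.79 to 6.51 and 1.91 to 2.40. The 1 called difference among them was CD79B, at -1.80 ± 0.51, and was lost in limma on the authors' table (-1.48, adjusted p = 0.099). Endothelial markers had 0 called differences in edgeR (0 of 5), and keratinocyte markers 1 of 2, KRT15 at -1.46 ± 0.37. The part of these markers in other results was not tested. Less RNA per cell and fewer cells of a kind cannot be told apart in these bulk libraries.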

How the data were processed

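PolyA mRNA of MKL-1 cells was sequenced in 12 libraries. Per the submitters' processing notes, the tools were FastQC, Salmon 1.2.0 and DESeq2 with hg38. The authors deposited Salmon's estimated counts and TPM per transcript for each library, and a table of normalized gene counts, used here as signal. Estimated counts were summed here to genes by transcript (93.5% of 179883 transcripts matched) and rounded, and the sums were checked against the deposited gene table. The deposited TPM served here only to weight effective lengths for the length offset. A gene with low counts was left out by edgeR's filter. edgeR 4.0.16 (R 4.3.3) fitted all 12 libraries together with TMM scaling and the quasi-likelihood test. The self-test on simulated data with 14536 genes recovered 78% of 2-fold and 89% of 4-fold differences, with 9 false calls. It changed only 100 genes at each fold, none from the lowest levels, and set no library apart from its group. Its rates may therefore not hold for these libraries. Named genes were the 6 largest differences per class and direction at 5 CPM or more in the highest group with sums within 0.8 to 1.2 times the authors' level, the 4 smallest p per list, and genes chosen by name. Members and lists were chosen with earlier results of these data known. Intervals and floors cover counting error or the spread between libraries only. Alternatives were limma 3.58.1 on the deposited table, DESeq2 1.42.0, other scalings and filters, transcript lengths as an offset, a replicate block and each library left out. Results for some genes and 1 list are not reported here.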

Additional observations from a re-analysis of the deposited data

Results flagged for a closer look

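The effect of the inhibitor differed between the days, by the test of the difference itself, for 3401 genes that were more positive and 3765 that were more negative at day 12. Of these, 388 turned direction. Among genes at 5 CPM or more whose sums lay near the authors' level, the largest from a rise to a fall, on the log2 scale, were H3P6 (-3.63), the scaffold protein IQGAP2 (-2.70), the calcium channel ITPR3 (-2.36), the zinc transporter SLC39A8 (-2.30), the ISG15 ligase HERC5 (-2.19) and the potassium channel KCNK2 (-2.10). The largest from a fall to a rise were DGCR6 (3.99), the calcium-binding protein S100A1 (3.63), PLEKHB1 (3.38), the polarity protein INSC (2.99), the ribonuclease RNASET2 (2.79) and the tip link protein PCDH15 (2.70). H3P6 and DGCR6 have near-identical copies and are uncertain.

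Reads on transcripts that matched no gene lay outside the gene sums. They were at least 3.55% of reads in the 3 treated libraries of day 12 and 3.08% to 3.16% in the other 9.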

How the results depend on the processing

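Depth limits the genes near 3 reads, and the median SE of a difference was 0.146 on the log2 scale. Differences of at least 2-fold numbered 1226 more positive and 1030 more negative, with 860 grown, 1118 late, 107 reduced (smaller or faded), 126 turned and 34 in the vehicle arm alone, and 2-fold changes between days 2460 in treated and 85 in vehicle cells. With limma on the authors' table at a pseudocount of 1, there were 1376 grown, 309 reduced, 176 turned, 681 held and 44 vehicle-arm genes, and 142 genes changed in vehicle cells. With a pseudocount of 5, there were 320 reduced, 178 turned, 686 held and 41 vehicle-arm genes, and 137 changed in vehicle cells. With transcript lengths as an offset, there were 1239 grown, 285 reduced, 158 turned, 597 held and 22 vehicle-arm genes, and 89 changed in vehicle cells. At an adjusted p under 0.01, there were 1374 grown, 264 reduced, 151 turned, 856 held and 43 vehicle-arm genes, and 181 changed in vehicle cells. PITPNM1, 1.73 in the reported fit, was -0.34 and -0.22 in limma and -0.35 with lengths as an offset, and the cause was not tested.

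With 1 library left out, the counts ran from 2961 to 3544 more positive, 3525 to 4044 more negative, 1674 to 2393 grown, 3511 to 4122 late, 352 to 619 reduced, 236 to 564 turned, 917 to 1541 held, 46 to 876 in the vehicle arm alone, 7867 to 9139 changed in treated cells and 184 to 4183 changed in vehicle cells. The extremes of the vehicle counts came without replicate 2 of day 6 (184 and 46) and without replicate 3 of day 12 (4183 and 876). Over the 2460 fits of a named gene with 1 library left out, 19 lost the call and 7 gained it. With the DESeq2 test, RSC1A1 and ANKRD20A2P were no longer called.

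With the replicate number as a block, 7161 genes were called, 3763 of them more negative. The 18 same-number pairs correlated at r of -0.05 to 0.09, none over 0.1, and 6 of 12 libraries matched best with their own number, so the numbers were not treated as pairs.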
